A study of Mus musculus with 12 samples.

Results

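This report describes 10 genes that Wnt/beta-catenin signalling switches on, restrains itself with or acts through: Axin2, Rnf43, Znrf3, Nkd1, Sox9, Myc, Ccnd1, Cd44, Ephb2 and Tcf7l2. They were chosen by name, with earlier results of these data known, and all 10 were found among the 14244 gene rows of the expression table. RNA was measured in gut epithelial cells of 5 WT and 7 Chd8L+/- mice, all 8 weeks old, males of the C57BL/6 strain and littermates, with a separate library for each mouse. Chd8L+/- mice carry 1 disrupted copy of the large isoform of Chd8 in every tissue, so the epithelium was not the only tissue affected, and no agent was given. The comparison of genotypes asked how loss of part of CHD8, a chromatin remodeller reported to hold beta-catenin back, goes with RNA levels in the gut epithelium.

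Wnt proteins bind Frizzled and LRP receptors and stop the destruction complex from breaking down beta-catenin, which then enters the nucleus and acts with TCF/LEF factors on target genes. In the gut, this signal is strongest at the base of the crypts, where it keeps stem cells and dividing progenitors, and it fades towards the villus. Several targets feed back on the pathway: AXIN2 rebuilds the destruction complex, RNF43 and ZNRF3 take Frizzled receptors off the cell surface, and NKD1 binds Dishevelled.

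Values are normalized counts, which are the reads counted on a gene divided by the size factor of the library. Each library held 15691662 to 20761315 reads on genes. The test of genotype was limma on log2(normalized count + 1), run on 12808 genes whose mean reached 10, and a gene was called at a Benjamini-Hochberg adjusted p of 0.05 or less; log2 fold changes are Chd8L+/- minus WT on that scale, where genes with few reads come out smaller than their true change. On the first principal component, 39.7% of the variance, WT replicate 2 lay at 41.0 among the Chd8L+/- libraries (0.26 to 42.7) and away from the other WT libraries (-67.5 to -26.2), so the log2 fold changes of the 10 genes are also given without it. That library was picked from these same data for its likeness to the Chd8L+/- libraries. Leaving it out therefore favours genotype differences by choice, and calls made without it are not independent support. Over all genes, limma called 3 with it, 3534 without it, and 0 to 8 with any other library left out. Chd8 itself, the targeted gene, ranged from 823 to 1050.2 in WT and from 1084 to 1483 in Chd8L+/- libraries, and its log2 fold change was 0.44 (adjusted p = 0.121 from limma). The exact permutation test, two-sided, gave p = 0.00126, the smallest value possible in this design. Without WT replicate 2 the limma adjusted p was 0.00676, in a fit that called 27.6% of all genes. The groups did not overlap for Chd8, and the Chd8L+/- libraries were the higher ones. Reads over the whole gene do not separate the deleted part from the rest, and Gm26590 overlaps Chd8 exons on the opposite strand, so this value does not check the deletion. The paper checked it by real-time PCR in gut epithelial cells, with the deleted exons lower and exon 1 higher in Chd8L+/- mice. It also reported reduced CHD8 staining in the gut of these mice. In RNA from whole preparations, fewer cells of a type and less RNA per cell cannot be told apart.

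None of the 10 genes was called between genotypes with all 12 libraries, beside 0.0234% of all genes tested. Axin2, Znrf3, Ccnd1, Cd44 and Ephb2 had higher means in Chd8L+/- mice, with log2 fold changes between 0.44 and 1.08. Sox9 and Tcf7l2 had lower means, with -0.73 and -0.30, and the differences of Rnf43, Nkd1 and Myc were between 0.04 and 0.15. At an unadjusted limma p of 0.05 or less, 3 genes were higher (Axin2, Znrf3 and Cd44) and 1 was lower (Sox9), against 12.5% and 11.8% of all genes. The median log2 fold change of the 10 genes was 0.29, and that of all genes tested was 0.01. The groups overlapped for all 10 genes; groups without overlap were seen in 0.515% of genes.

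**Figure D1:**
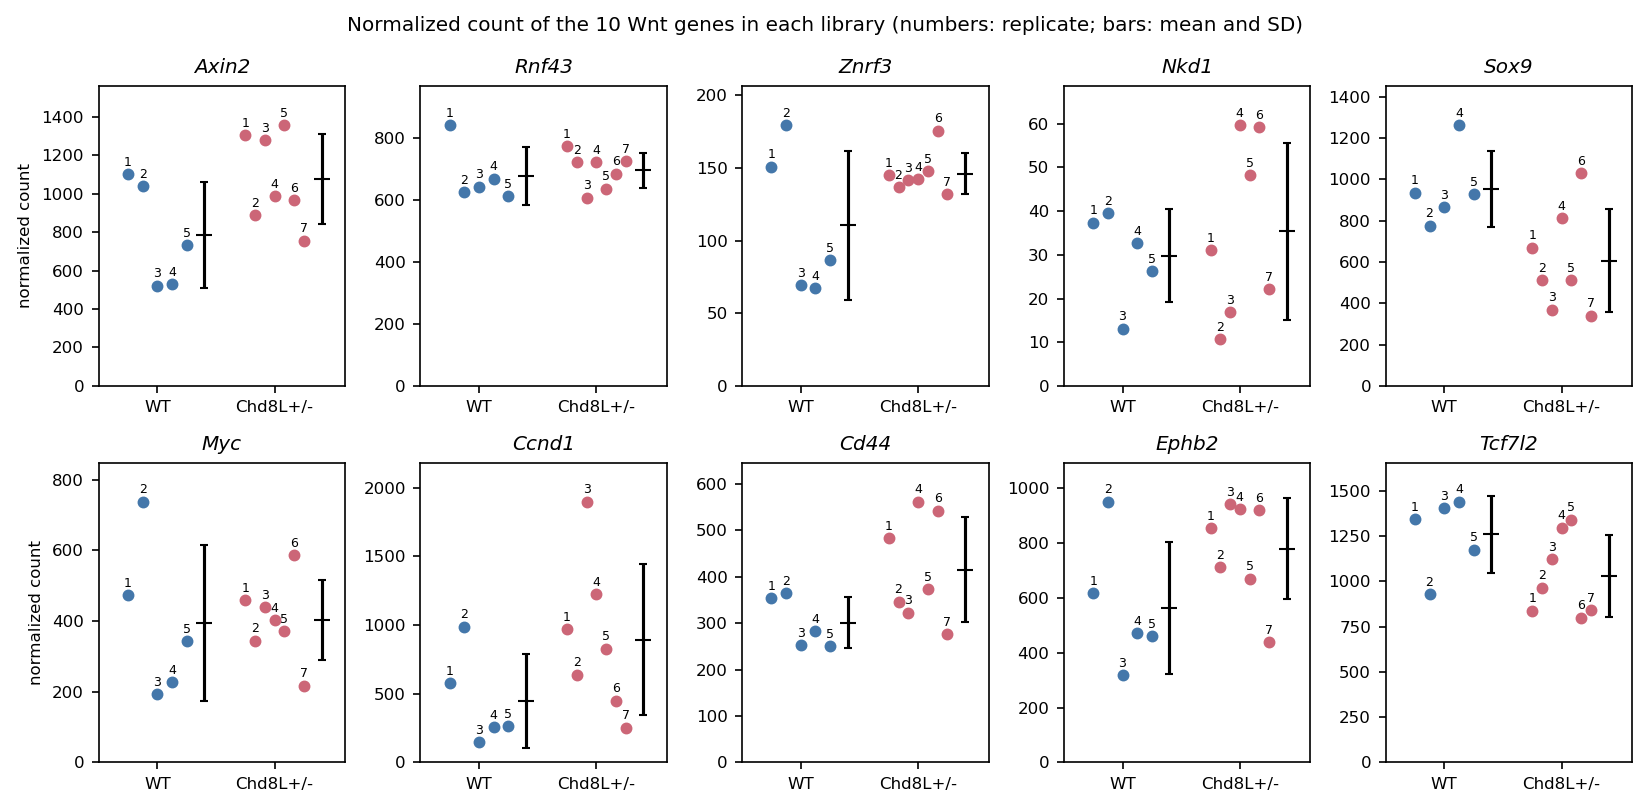
Normalized count (vertical axes, from 0) of each of the 10 genes in the 5 WT (blue) and 7 Chd8L+/- (red) libraries; each point is a mouse with its replicate number, and black bars are the mean and SD. For Axin2, Znrf3, Nkd1, Myc, Ccnd1, Cd44 and Ephb2, WT replicates 1 and 2 lie above WT replicates 3, 4 and 5, and for each gene the genotypes overlap.

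When WT replicate 2 was left out, limma called 4 of the 10 genes, 3 higher (Znrf3, Ccnd1 and Ephb2) and 1 lower (Sox9). In the same fit 27.6% of all genes were called, 14% higher and 13.6% lower, so the share of the 10 genes is to be read against a large background. The 95% intervals with and without that library are shown in the plot of log2 fold changes. On the recovered reads, edgeR called 0 of the 10 genes (0.039% of all genes) and DESeq2 called 0 (6.29%). By the exact permutation test, which looks at each gene on its own, 1 of the 10 had a p of 0.05 or less (21.6% of all genes). That count was 7 without WT replicate 2 (38.9%), 5 without Chd8L+/- replicate 7 (22.8%), and 2 without WT replicate 1 (18%). It was 4 with the first letter of the library names as a block (23.5%), a fit that also leaves out Chd8L+/- replicate 7, whose letter no other library has. The genes in these counts were not the same: the 7 were 5 higher and 2 lower, the 5 were 4 higher and 1 lower, and the 2 and the 4 were all higher, with Sox9 not among them. It was 0 without WT replicate 4 (12.7%), WT replicate 5 (14.2%), Chd8L+/- replicate 2 (19.9%) or Chd8L+/- replicate 5 (18.4%).

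**Figure D2:**
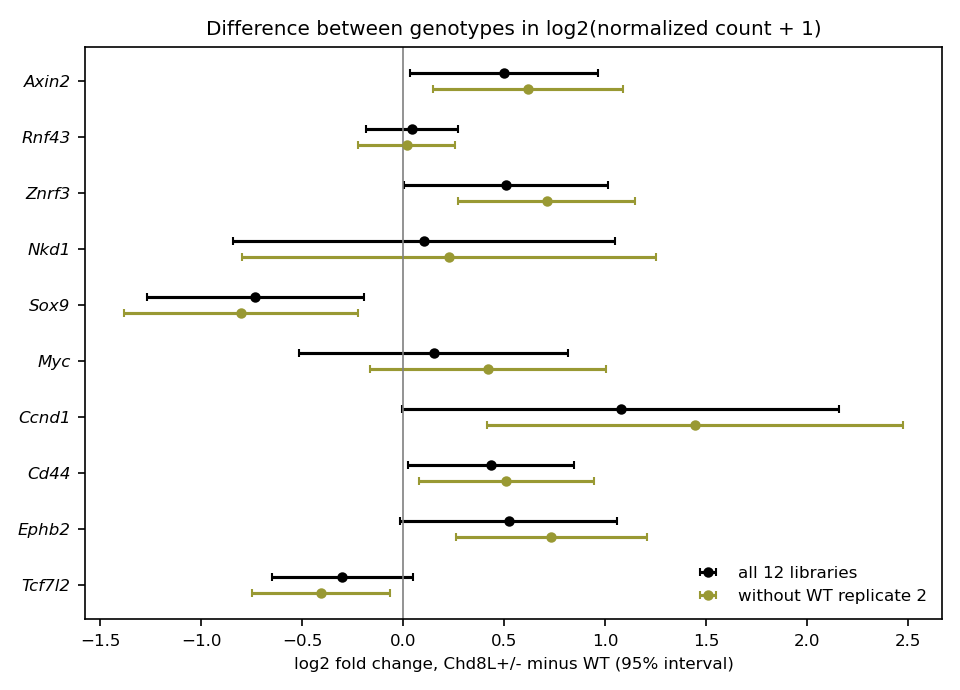
Log2 fold change of each gene, Chd8L+/- minus WT (horizontal axis), with its 95% interval from limma, for all 12 libraries (black) and without WT replicate 2 (olive). Without that library the estimates of Znrf3, Ccnd1 and Ephb2 move from 0.51, 1.08 and 0.52 to 0.71, 1.44 and 0.73, while Rnf43 stays near 0.

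The feedback regulators come first. Axin2 (chromosome 11, 108920349 to 108950783, plus strand, GRCm38) encodes a scaffold of the destruction complex and is widely used as a readout of beta-catenin activity. Its normalized count in WT replicates 1 to 5 was 1100.4, 1037, 521, 528 and 732. In Chd8L+/- libraries the lowest was 754, the median 987 and the highest 1356. WT replicates 1 and 2 were at the level of the Chd8L+/- libraries and the other 3 WT libraries lay below all of these, so the groups overlapped through 2 WT libraries. The means were 784 ± 275 against 1076 ± 234 (SD; n = 5 and 7), a log2 fold change of 0.50 (95% interval 0.04 to 0.96, adjusted p = 0.183 from limma; two-sided exact permutation p = 0.0669). It was 0.62 without WT replicate 2, with an adjusted p of 0.05004 from limma, just over the threshold, and the alternatives gave adjusted p-values from 0.05004 to 0.434. Exons of Gm11670 overlap Axin2 on the opposite strand, and the strand setting of the counting is not given in the sources used here.

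Rnf43 and Znrf3 are related membrane ubiquitin ligases with the same task at the Frizzled receptors, and their values differed in spread. Rnf43 (chromosome 11, 87662722 to 87735539, plus strand) had 842, 626, 643, 669 and 612 normalized counts in WT replicates 1 to 5. The Chd8L+/- libraries lay between 608 and 773 with a median of 722, almost wholly inside the WT range. The log2 fold change was 0.04 with a 95% interval of -0.19 to 0.27 (adjusted p = 0.831 from limma, exact permutation p = 0.634), the narrowest interval among the 10 genes, and 0.02 without WT replicate 2. The mean was 679 ± 93.8 in WT and 696 ± 57.0 in Chd8L+/- mice (SD; n = 5 and 7).

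Znrf3 (chromosome 11, 5276324 to 5444847, minus strand) had 151, 179.6, 69.6, 67.4 and 86.5 normalized counts in WT replicates 1 to 5. In Chd8L+/- libraries it lay between 132 and 176, with a median of 142. The 7 Chd8L+/- libraries were close together, with WT replicates 1 and 2 within or above their range and WT replicates 3, 4 and 5 below them. The means of 111 ± 51.3 in WT and 146 ± 14.1 in Chd8L+/- mice (SD; n = 5 and 7) gave a log2 fold change of 0.51 (95% interval 0.0017 to 1.01, adjusted p = 0.205 from limma, exact permutation p = 0.0770). The difference without WT replicate 2 was 0.71 (adjusted p = 0.0222 from limma, in a fit that called 27.6% of all genes, and up to 0.467 over the alternatives). The ratio of Znrf3 to Rnf43 counts ranged from 0.1007 to 0.287 in WT and from 0.182 to 0.256 in Chd8L+/- libraries; this pair was set side by side after the values were seen, and the ratio was not tested.

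Nkd1 (chromosome 8, 88521354 to 88594884, plus strand), the inhibitor that binds Dishevelled, had the fewest reads, between 12 and 65 per library. Normalized counts in WT replicates 1 to 5 were 37.3, 39.6, 13.1, 32.7 and 26.3, and in Chd8L+/- libraries they ran from 10.7 to 59.7 with a median of 31.1. Chd8L+/- replicates 4, 5 and 6 lay above all WT libraries and replicate 2 below all of them. For Chd8L+/- replicate 2, 12 reads allow a normalized count of 5.51 to 18.6, and for replicate 4, 57 reads allow 45.2 to 77.3 (95% exact Poisson intervals, counting error only), so the spread within the genotype was larger than counting error. The log2 fold change of 0.10 had a 95% interval of -0.84 to 1.05 (adjusted p = 0.905 from limma, exact permutation p = 0.828), an interval that spans differences of either sign; without WT replicate 2 the value was 0.22 (adjusted p = 0.758).

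Among targets that act on cell identity and growth, Sox9 was the gene with a lower mean and Ccnd1 the gene with the largest difference of the 10. Sox9 (chromosome 11, 112782224 to 112787760, plus strand) encodes a transcription factor of the crypt base that Paneth cells need. It had 935, 776, 864, 1263 and 929 normalized counts in WT replicates 1 to 5, and in Chd8L+/- libraries the lowest was 339, the median 513 and the highest 1029. In 5 of the 7 Chd8L+/- libraries Sox9 was below every WT library, while replicates 4 and 6 lay within the WT range. The means of 953 ± 184 in WT and 607 ± 249 in Chd8L+/- mice (SD, n = 5 and 7) gave a log2 fold change of -0.73 (95% interval -1.27 to -0.20, adjusted p = 0.127 from limma). Without WT replicate 2 it was -0.80 (adjusted p = 0.0410 from limma, in a fit that called 27.6% of all genes, and up to 0.344 over the alternatives). In the two-sided exact permutation test Sox9 was the single gene of the 10 with p of 0.05 or less (p = 0.0316), where 21.6% of all genes had one. Leaving out a library moved that exact permutation p between 0.00866 and 0.0788: it was 0.0545 without WT replicate 1, 0.0788 without WT replicate 4, 0.0545 without WT replicate 5, and 0.0541, 0.0519 and 0.0541 without Chd8L+/- replicates 2, 3 and 5. With the library letter as a block and Chd8L+/- replicate 7 left out it was 0.0972. The summed level of 6 Paneth cell markers was 88442 to 142954 in WT and 53874 to 149702 in Chd8L+/- libraries. Chd8L+/- replicate 6 was the highest of its genotype for both, whereas WT replicate 4, the highest for Sox9, was the fourth of the WT libraries for these markers (109566). The summed level of 7 tuft cell markers, set beside Sox9 after the values were seen, was highest in WT replicate 4 (17201) and lowest of WT in replicate 2 (1904), as Sox9 was. Chd8L+/- replicate 6 was the highest of its genotype for both (7317 for the tuft cell sum). WT replicate 3 was high in the tuft cell sum (15089.5) but not for Sox9. The lowest Chd8L+/- library was replicate 7 for Sox9 and replicate 5 for the tuft cell sum. The part of Paneth and tuft cells in the result was not tested.

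Myc (chromosome 15, 61985391 to 61990374, plus strand) encodes the growth-promoting transcription factor. It had 473, 738, 193, 226 and 342 normalized counts in WT replicates 1 to 5, and from 217 to 586 with a median of 403 in Chd8L+/- libraries. The Chd8L+/- range lay inside the WT range. The means of 394 ± 221 in WT and 403 ± 113 in Chd8L+/- mice (SD; n = 5 and 7) gave a log2 fold change of 0.15 (95% interval -0.51 to 0.82, adjusted p = 0.788 from limma, exact permutation p = 0.673). That value depended on single libraries: it was 0.42 without WT replicate 2 (adjusted p = 0.266 from limma), -0.06 without WT replicate 3, -0.0047 without WT replicate 4, 0.26 without WT replicate 1, 0.05 without Chd8L+/- replicate 6 and 0.29 without Chd8L+/- replicate 7.

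Ccnd1 (chromosome 7, 144929931 to 144939925, minus strand) encodes cyclin D1, which drives cells from growth into DNA synthesis. Its normalized count in WT replicates 1 to 5 was 577, 987, 147, 256 and 266. In Chd8L+/- libraries the lowest was 254 (replicate 7), the median 828 and the highest 1898 (replicate 3). WT replicates 3, 4 and 5 and Chd8L+/- replicate 7 formed the low end, and WT replicate 2 lay above 5 of the 7 Chd8L+/- libraries. The means of 447 ± 342 in WT and 895 ± 548 in Chd8L+/- mice (SD; n = 5 and 7) gave a log2 fold change of 1.08 (95% interval -0.01 to 2.16, adjusted p = 0.208 from limma, exact permutation p = 0.102). Without WT replicate 2 it was 1.44 (adjusted p = 0.0392 from limma, in a fit that called 27.6% of all genes, and up to 0.478 over the alternatives). Without Chd8L+/- replicate 7 it was 1.34 (adjusted p = 0.122 from limma, exact permutation p = 0.0433). With that library left out and the first letter of the library names as a block, it was 1.54 (adjusted p = 0.0435 from limma), where 3.55% of all genes were called and Ccnd1 was the 1 gene of the 10. LTO1 exons overlap Ccnd1 on the opposite strand.

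The surface receptors had higher means in Chd8L+/- mice. Cd44 (chromosome 2, 102811141 to 102901665, minus strand) encodes an adhesion receptor of crypt cells. Its normalized count was 355, 364, 252, 284 and 251 in WT replicates 1 to 5, and in Chd8L+/- libraries the lowest was 276, the median 374 and the highest 562. Chd8L+/- replicates 1, 4, 5 and 6 lay above all WT libraries and the other 3 lay within the WT range. The means of 301 ± 55.0 in WT and 415 ± 113 in Chd8L+/- mice (SD; n = 5 and 7) gave a log2 fold change of 0.44 (95% interval 0.02 to 0.85, adjusted p = 0.187 from limma, exact permutation p = 0.0631). It was 0.51 without WT replicate 2 (adjusted p = 0.0751 from limma, exact permutation p = 0.0485).

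Ephb2 (chromosome 4, 136647539 to 136835988, minus strand) encodes a receptor tyrosine kinase that, through ephrin-B ligands, helps keep cells in their place along the crypt. In WT replicates 1 to 5 it had 619, 952, 319, 472 and 461 normalized counts, and in Chd8L+/- libraries the lowest was 438 (replicate 7), the median 854 and the highest 943. WT replicate 2 was the highest of all 12 libraries, and 6 of the 7 Chd8L+/- libraries lay above the other 4 WT libraries. The means of 565 ± 241 in WT and 780.3 ± 185 in Chd8L+/- mice (SD; n = 5 and 7) gave a log2 fold change of 0.52 (95% interval -0.02 to 1.06, adjusted p = 0.217 from limma, exact permutation p = 0.0985). Without WT replicate 2 it was 0.73 (adjusted p = 0.0267 from limma, in a fit that called 27.6% of all genes, and up to 0.506 over the alternatives). Of the ephrin-B ligands, 1 of 3 had a higher and 2 a lower mean in Chd8L+/- mice, and none was called; Efnb1 had a log2 fold change of -0.14 and Efnb2 of -0.11.

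Tcf7l2 (chromosome 19, 55741820 to 55933654, plus strand) encodes TCF4, the main TCF/LEF factor through which beta-catenin acts in the gut epithelium. It had 1346, 929.5, 1407, 1441 and 1175 normalized counts in WT replicates 1 to 5. In Chd8L+/- libraries the lowest was 800.3, the median 966 and the highest 1342. Chd8L+/- replicates 1, 6 and 7 lay below all WT libraries, and WT replicate 2 was the lowest WT library here, whereas it was the highest for 6 of the 10 genes. The means of 1259.5 ± 211 in WT and 1029 ± 226 in Chd8L+/- mice (SD; n = 5 and 7) gave a log2 fold change of -0.30 (95% interval -0.65 to 0.05, adjusted p = 0.263 from limma, exact permutation p = 0.102), with every Chd8L+/- library under the WT median. It was -0.41 without WT replicate 2 (adjusted p = 0.0703 from limma, exact permutation p = 0.0424).

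Start regions are shown for Axin2, as a readout gene, and for 2 windows that hold the core of the TCF/LEF motif. RefSeq start windows of 300 bases (GRCm38.p6) were given for 6 of the 10 genes, 8 windows in all: Axin2, Rnf43, Nkd1, Cd44, Ephb2 and Tcf7l2. The core CTTTG, searched on both strands, was in 3 of the 8 windows and in 53.9% of the 32851 windows of all genes. The longer form CTTTGAT was in 0 of the 8 windows and in 3.73% of all, and CTTTGTT was in 1 of the 8 and in 5.85% of all; the core is contained in both. Capitals mark the core, read on the gene's strand as CTTTG or CAAAG, and each sequence is that strand 5′ to 3′. A match is a description of letters, and a window without one says only that these letters are not in it.
Axin2, chr11:108920099-108920398, plus strand: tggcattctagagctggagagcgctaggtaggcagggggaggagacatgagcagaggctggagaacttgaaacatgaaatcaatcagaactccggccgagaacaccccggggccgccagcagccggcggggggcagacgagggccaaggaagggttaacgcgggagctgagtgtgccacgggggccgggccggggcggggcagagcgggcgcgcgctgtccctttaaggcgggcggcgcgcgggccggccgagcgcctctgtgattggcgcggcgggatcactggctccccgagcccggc
Cd44, chr2:102901616-102901915, minus strand: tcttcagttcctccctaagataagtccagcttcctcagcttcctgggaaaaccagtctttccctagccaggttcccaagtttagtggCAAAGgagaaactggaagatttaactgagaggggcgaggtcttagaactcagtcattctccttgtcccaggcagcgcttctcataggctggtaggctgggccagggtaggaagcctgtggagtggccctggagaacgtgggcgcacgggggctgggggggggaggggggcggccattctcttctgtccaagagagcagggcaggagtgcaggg
Tcf7l2, chr19:55895071-55895370, plus strand, a start inside the gene: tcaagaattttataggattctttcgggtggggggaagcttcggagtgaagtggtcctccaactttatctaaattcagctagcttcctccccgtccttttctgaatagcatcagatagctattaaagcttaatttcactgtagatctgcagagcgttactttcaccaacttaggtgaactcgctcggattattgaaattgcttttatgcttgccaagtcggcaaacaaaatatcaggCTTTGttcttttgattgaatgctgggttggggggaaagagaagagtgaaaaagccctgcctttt
The Axin2 window held no core and had 70.0% G and C, and the Tcf7l2 window, which holds CTTTGTT, had 42.0%; the median of all windows was 52.7%. The third window with the core, not printed, is at the upstream start of Tcf7l2 (chr19:55741560-55741859, plus strand) and had 70.0% G and C.

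Levels between genes were compared per kilobase of exon. In WT libraries the mean normalized count per kilobase was highest for Sox9, 231 ± 44.6, followed by Myc (145 ± 81.4), Tcf7l2 (144 ± 24.1) and Axin2 (142 ± 49.9). Rnf43 (104 ± 14.3) and Ccnd1 (94.8 ± 72.6) came next, then Ephb2 (44.8 ± 19.1) and Cd44 (44.4 ± 8.12), and Znrf3 (14.04 ± 6.50) and Nkd1 (6.54 ± 2.33) were lowest (SD, n = 5 each). Myc, Tcf7l2 and Axin2 did not differ beyond their spread, nor did Rnf43 and Ccnd1 or Ephb2 and Cd44. In Chd8L+/- libraries Axin2 (195 ± 42.5) and Ccnd1 (190.0 ± 116) had the highest means, and Sox9 (147 ± 60.1) came after Myc (148 ± 41.7) (SD, n = 7 each), all within their spread of each other.

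The libraries differed in a way that several of the genes shared. WT replicates 3, 4 and 5 were the 3 lowest WT libraries for 7 of the 10 genes (Axin2, Znrf3, Nkd1, Myc, Ccnd1, Cd44 and Ephb2). WT replicate 2 was the highest WT library for 6 genes, and Chd8L+/- replicate 7 was the lowest of its genotype for 7. In Chd8L+/- replicate 7 the top gene, COX1 of the mitochondrial genome, took 12.3% of the counts, where the top gene took between 3.08% and 9.26% in the other libraries. The 9.26% was COX1 in WT replicate 2, and in WT replicates 1, 3, 4 and 5 the top gene took between 3.75% and 4.77%. The ratio of Axin2 to Sox9 counts was 0.418 to 1.34 in WT and 0.94 to 3.46 in Chd8L+/- libraries; this pair too was chosen after the values were seen, and the ratio was not tested.

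**Figure D3:**
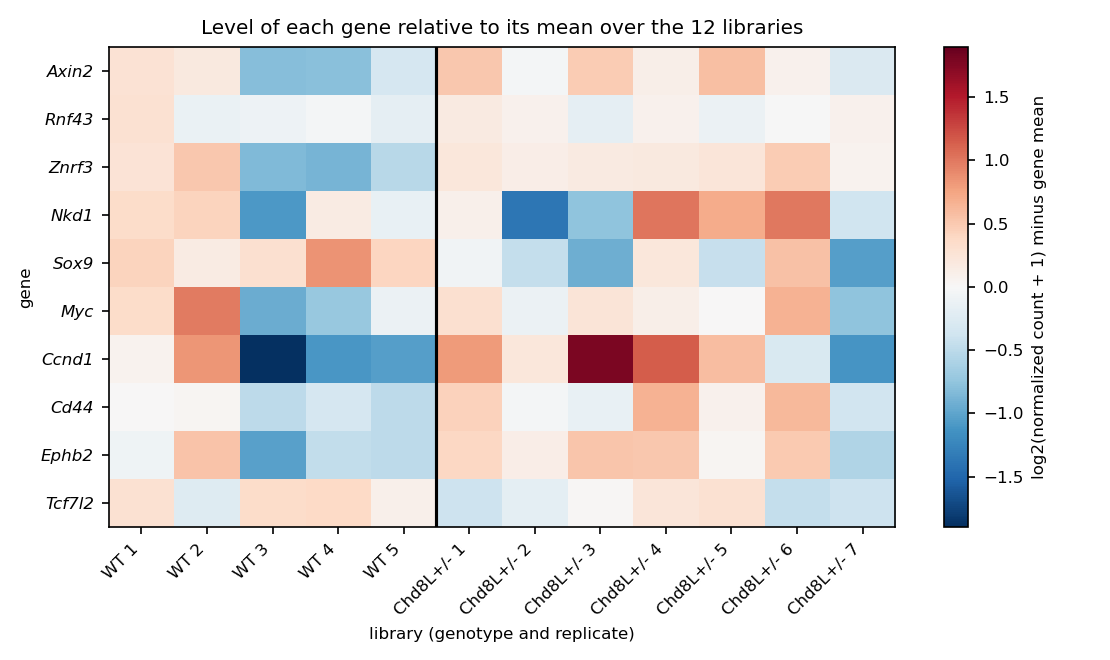
Heat map of log2(normalized count + 1) of each gene (rows) in each library (columns, WT left of the line), minus the mean of the gene over the 12 libraries; red is above and blue below that mean. WT replicates 3, 4 and 5 are the lowest 3 WT libraries for 7 genes, and Chd8L+/- replicate 7 is the lowest of its genotype for 7.

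The 5 other genes whose levels followed Axin2 most closely over the 12 libraries, by Pearson r of log2(normalized count + 1), were Tfpi (0.94), Ddx31 (0.93), Dcp1a (0.93), Mns1 (0.93) and Ccnd2 (0.92). Spearman's rho was between 0.74 and 0.94, and without the 2 libraries farthest from the Axin2 median r was between 0.77 and 0.89. They were picked by r among all genes tested, so no p is given, and the points share their libraries. Ccnd2, which encodes another D-type cyclin, had means of 2355 in WT and 3219 in Chd8L+/- libraries (log2 fold change 0.71, adjusted p = 0.281 from limma).

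Of 108 other genes of the pathway, 86 had a row in the table and 70 were tested. None was called by limma with all 12 libraries (0.0234% of all genes were). Of the 70, 39 had a higher and 31 a lower mean in Chd8L+/- mice, and their median log2 fold change was 0.03. At an unadjusted p of 0.05 or less 9 were higher and 2 lower, 11 of the 70, beside 24.3% of all genes. Leaving out WT replicate 2, 13 were called, 10 higher and 3 lower, beside 27.6% of all genes. Chd8 is counted among these 70 pathway genes and is 1 of the 10 pathway genes called higher.

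On the ligand side, 7 of 21 genes of Wnt ligands and their secretion were tested. Wls, which carries Wnt proteins to the cell surface, had 266 ± 148 normalized counts in WT against 389.9 ± 96.1 in Chd8L+/- mice (SD, n = 5 and 7), a log2 fold change of 0.66 (adjusted p = 0.168 from limma). Without WT replicate 2 it was 0.94 (adjusted p = 0.00821 from limma), in a fit that called 14% of all genes higher. Wnt4 had a log2 fold change of -0.71 (adjusted p = 0.295) and Wnt5a of 0.82 (adjusted p = 0.385). The R-spondin receptors Lgr4 and Lgr5, which protect Frizzled from RNF43 and ZNRF3, had 0.20 and 0.38 (adjusted p = 0.332 and 0.366 from limma).

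Among 12 tested receptors and co-receptors, 8 had higher and 4 lower means. Fzd6, a Frizzled receptor, had 44.9 ± 14.2 normalized counts in WT against 84.8 ± 28.1 in Chd8L+/- libraries (SD; n = 5 and 7), which gave 0.89 as log2 fold change (adjusted p = 0.121 from limma). The co-receptor Lrp6 had 1125 ± 231 against 1452 ± 189 (SD; n = 5 and 7), a log2 fold change of 0.38 (adjusted p = 0.135 from limma), and Fzd9 had -0.72 (adjusted p = 0.182). After WT replicate 2 was left out, 4 receptors were called higher (Fzd5, Fzd6, Lrp6 and Ror2) and 1 lower (Fzd8), with adjusted p-values of 0.0208 for Fzd6 and 0.0123 for Lrp6 from limma, beside 14% of all genes called higher and 13.6% lower.

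Of the secreted and membrane inhibitors, 5 of 15 were tested and none was called. Sfrp5, Kremen1 and Kremen2 had log2 fold changes of 0.85, 0.21 and -0.48 (adjusted p = 0.379, 0.248 and 0.264 from limma). Kremen2, a partner of DKK proteins, had -0.70 without WT replicate 2 (adjusted p = 0.0358 from limma), where 13.6% of all genes were called lower. The 3 Dishevelled genes differed little, with 0.04 for Dvl1, -0.07 for Dvl2 and 0.21 for Dvl3.

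For the 12 genes of the destruction complex the median log2 fold change was -0.01, 5 with higher and 7 with lower means. Amer1, which helps place the complex at the membrane, had 81.1 ± 43.9 normalized counts against 119 ± 26.1 (SD, n = 5 and 7), a log2 fold change of 0.64 (adjusted p = 0.163 from limma). The limma adjusted p was 0.00636 without WT replicate 2, where 14% of all genes were called higher. Gsk3a had -0.20 and Fbxw11, a subunit of the ubiquitin ligase for beta-catenin, had -0.24 (adjusted p = 0.448 and 0.282 from limma).

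In the nucleus, 3 of 7 genes of beta-catenin, its TCF/LEF partners and co-activators had higher means, and Tcf7 had 93.4 ± 22.4 normalized counts against 122 ± 16.5 (SD; n = 5 and 7), a log2 fold change of 0.41 (adjusted p = 0.186 from limma). Bcl9, which links beta-catenin to co-activators, had 0.36 and Tcf7l1 -0.66 (adjusted p = 0.194 and 0.499). Of 10 tested nuclear repressors, 5 had higher and 5 lower means. Tle1, a co-repressor of TCF factors, had 1027 ± 97.8 normalized counts against 769 ± 136 (SD; n = 5 and 7), a log2 fold change of -0.43 (adjusted p = 0.121 from limma), and Tle4 had 0.24 (adjusted p = 0.282). In DESeq2 on the recovered reads, where 6.29% of all genes were called, the 3 pathway genes called were Fzd6 and Chd8, higher, and Tle1, lower.

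The list nearest in kind to the members holds 14 other reported Wnt targets of the crypt, of which 13 were tested, 9 with higher and 4 with lower means and a median log2 fold change of 0.30. Slc12a2, an ion transporter of crypt cells, had 2942 ± 1383 normalized counts against 4057 ± 1011 (SD; n = 5 and 7), a log2 fold change of 0.55 (adjusted p = 0.211 from limma). Sp5, a transcription factor, had 385 ± 101.4 against 278 ± 84.4 (SD; n = 5 and 7), a log2 fold change of -0.50 (adjusted p = 0.260 from limma). Without WT replicate 2, 3 of the 13 were called, all higher (Slc12a2, Cdca7 and Tcf7), beside 27.6% of all genes.

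**Figure D4:**
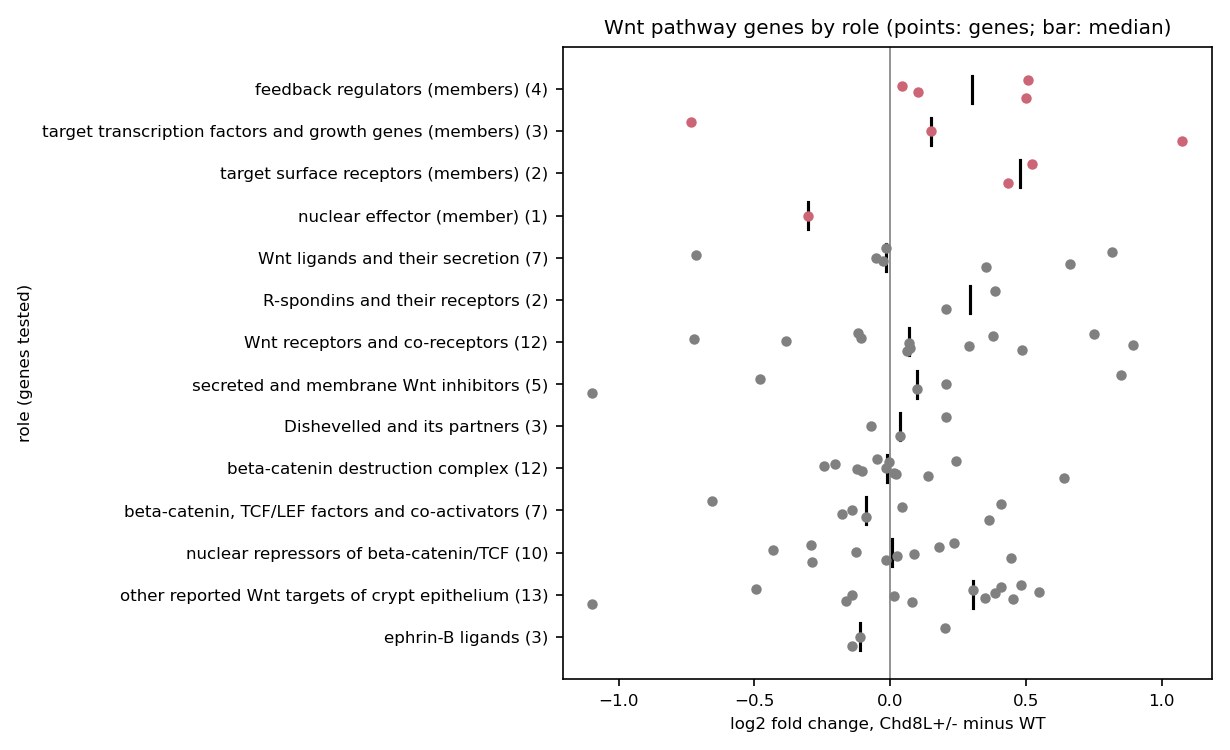
Log2 fold change, Chd8L+/- minus WT (horizontal axis), of every tested Wnt gene by role, with the number of genes tested; red points are the 10 genes of the report, grey points other pathway genes (Tcf7, Lef1, Lgr5 and Apcdd1 stand in 2 lists) and bars medians. The destruction complex has a median of -0.01 and the other Wnt targets one of 0.30.

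Marker lists of other cell states also had different means between genotypes, none of their genes being called by limma with all 12 libraries. All 11 proliferation markers had higher means in Chd8L+/- mice (median log2 fold change 0.98; 10 with an unadjusted p up to 0.05, beside 24.3% of all genes), and a summed normalized count of 3283 to 14260.5 in WT and 8130.1 to 14736 in Chd8L+/- libraries. In this sum WT replicates 3, 4 and 5 were the lowest and Chd8L+/- replicate 7 the lowest of its genotype. Among the members, WT replicates 3, 4 and 5 were the lowest WT libraries for 7 of 10. Chd8L+/- replicate 7 was the lowest of its genotype for 7 of 10, though not the same 7. All 6 stem cell markers had higher means (median 0.48, sums of 5037 to 16349 and 9526 to 19603). Of these, Lgr5, Ascl2, Slc12a2 and Tnfrsf19 also stand in the list of other Wnt targets, so the 2 lists are not separate observations. Olfm4 and Slc12a2 had the largest values in the sum (WT means 5438 and 2942). Of the enterocyte markers, 8 of 9 had lower means (median -0.61, sums of 287921 to 693804 and 246162 to 602848). All 7 tuft cell markers had lower means (median -1.78; 1904 to 17201 and 1114 to 7317). The paper, with DESeq2, reported tuft cell markers to be overrepresented among the genes lower in Chd8L+/- mice. It also found tuft cell markers lower by real-time PCR and fewer DCLK1-positive cells in the small intestine, though not in the colon. From this it proposes that the lower marker levels came from fewer tuft cells. When WT replicate 2 was left out, where 27.6% of all genes were called, 10 of the 11 proliferation markers were called higher, 6 of the 7 tuft cell markers lower and 6 of the 10 myeloid markers higher, and in each other marker list 0 to 3 genes were called.

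Lists of immune and stromal markers were read too. The 10 myeloid markers summed to 1201 to 3239.9 in WT and 1855 to 4162 in Chd8L+/- libraries, all 10 with higher means (median 0.99), and the 9 stromal markers to 130.4 to 597 and 194 to 2286, with the 7 tested all higher (median 1.76) and at least 1 marker at 0 in 3 WT libraries and 1 Chd8L+/- library. Of 12 lymphocyte markers 10 had lower means (median -0.23; 3396 to 6773 and 2668 to 7293). Lyz2 had the largest values in the myeloid sum (WT mean 1345) and Gzma in the lymphocyte sum (WT mean 2363). These 2 sums therefore follow mainly a few genes, and the place of the cells that held this RNA was not tested. Other epithelial lists were goblet cells (1 higher and 5 lower, 97962 to 240332 and 90717 to 174473), Paneth cells (2 higher and 4 lower) and enteroendocrine cells (4 higher and 2 lower, 3036 to 7166 and 4458 to 6723). Segment markers differed widely between libraries: 4 colon markers summed to 459 to 5961 in WT and 497 to 20592 in Chd8L+/- libraries, 2 distal small intestine markers to 2635 to 19691 and 51.0 to 25421, and 4 proximal ones to 2703 to 4585 and 2549.9 to 4369.6. The part of these cell types and segments in the values of the 10 genes was not tested.

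**Figure D5:**
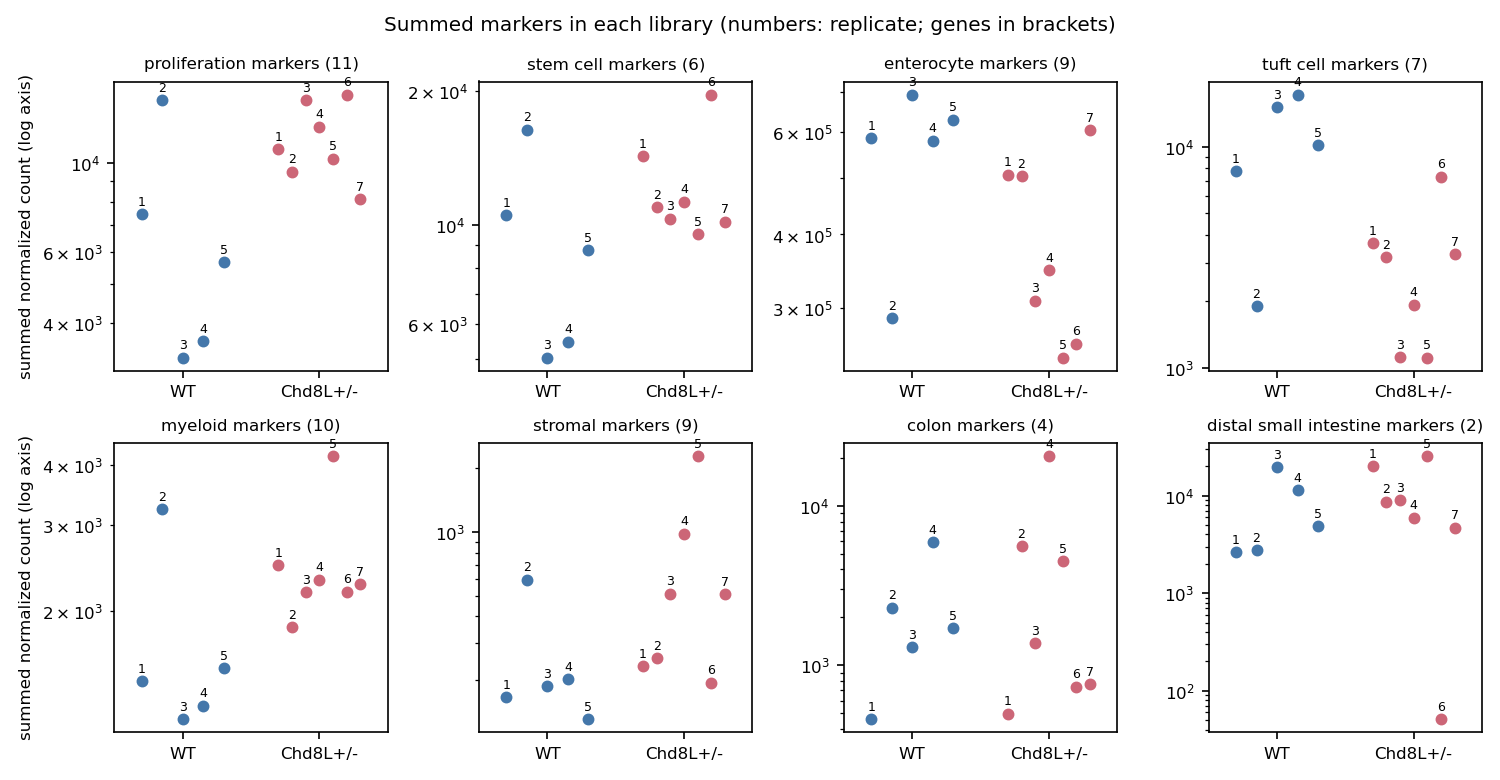
Summed normalized count of marker genes (vertical axes, log scale) in each WT (blue) and Chd8L+/- (red) library, with replicate numbers and the number of genes in brackets. WT replicate 2 lies among the Chd8L+/- libraries for proliferation, enterocyte, tuft cell, myeloid and stromal markers. WT replicates 1 and 4 also do so for enterocyte markers, and WT replicate 4 for stromal markers. Chd8L+/- replicate 6 has 51.0 for the distal small intestine.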

How the data were processed

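Poly(A) RNA of gut epithelial cells from 12 mice was read single-end, and the authors mapped it with Tophat2 to mm10 and used the DESeq2 pipeline; the counting program, annotation and strand setting are not given in the sources used here. The deposited signal is a normalized count: the authors divided the reads of a gene by the size factor of its library. All 12 columns were matched by library name and 0 belonged to other samples. Values were whole multiples of 1 read (100.0% within 0.01 of a whole number), so reads could be recovered for edgeR and DESeq2. Of 14244 rows, 21 have date-like names, which were not used by name.

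The test of genotype was limma 3.58.1 in R 4.3.3 (lmFit, eBayes, trend) on log2(value + 1), on genes whose mean reached 10, with Benjamini-Hochberg adjustment over all genes; single genes also had an exact permutation test, two-sided, over all 792 arrangements. Alternatives were other pseudocounts (0.5, 5), tests without the filter or with 10 required in each library, quantile scaling, edgeR 4.0.16, DESeq2 1.42.0, a block for replicate number (10 libraries) or for library letter (11 libraries), and leaving out each library. The fits were tested on simulated data. Positions and exon lengths come from GENCODE M21 (GRCm38, the build of mm10), which may not be the annotation of the authors; the start windows are from RefSeq.

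The members and gene lists were chosen with earlier results of these data known. Named are all members, Chd8, the 5 genes closest to Axin2, and up to 3 genes per pathway list by unadjusted p; Fzd5, Fzd8, Ror2 and Cdca7 were named after their values were seen, as genes called without WT replicate 2, and Lef1 and Apcdd1 as genes of 2 lists. The precision is set by the number of mice, 1 per library, and intervals on reads cover counting error only.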

Additional observations from a re-analysis of the deposited data

Results flagged for a closer look

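In 22 groups of libraries (11 genes in 2 genotypes), 2 had a library far from the others of its genotype by Dixon's gap, where chance gives about 1 group in 20, or 1.1. Rnf43 in WT replicate 1 stood at 9.72 on the log2(normalized count + 1) scale (842 normalized counts), with the next WT library at 9.39. Znrf3 in Chd8L+/- replicate 6 stood at 7.46 (176 normalized counts; 7.465), with the next library of its genotype at 7.22.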

How the results depend on the processing

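Of 210 values of single genes of the 10 under 21 alternatives each, 196 kept their direction and their side of the threshold, 5 passed the threshold only under the alternative and 9 changed sign. The 5 were Znrf3, Sox9, Ccnd1 and Ephb2 without WT replicate 2 and Ccnd1 with the library letter as a block, a fit without Chd8L+/- replicate 7. Those that changed sign were Rnf43 with the library letter block (-0.0021), Nkd1 with quantile normalization (-0.0243) and with the replicate block (-0.0047), and Nkd1 and Myc with libraries left out (log2 fold changes from -0.1568 to 0.3375 and from -0.0624 to 0.4207). The cause of these shifts was not tested.

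Over all genes, 3 were called with all libraries, 5 by edgeR, 805 by DESeq2 (230 higher and 575 lower), 454 with the library letter block (178 higher and 276 lower) and 0 to 3534 with a library left out; it was 3534 without WT replicate 2 and 8 without Chd8L+/- replicate 6. Of the 10 genes, 0 were called in limma (0.0234% of all genes called), edgeR (0.039%) and DESeq2 (6.29%). The count was 1 with the letter block (3.55%) and 0 to 4 with a library left out (4 without WT replicate 2, where 27.6% of all genes were called). Other pathway genes were called in number 0 by limma, 3 by DESeq2 (6.29% of all genes), and 0 to 13 with a library left out (13 without WT replicate 2, 27.6% of all genes). In the exact permutation test, 1 of the 10 genes had a p of 0.05 or less, 4 with the letter block (23.5% of all genes) and 0 to 7 with a library left out: 7 without WT replicate 2 (38.9% of all genes), 5 without Chd8L+/- replicate 7 (22.8%), 2 without WT replicate 1 (18%) and 0 without WT replicates 4 or 5 or Chd8L+/- replicates 2 or 5.

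Replicate numbers name the libraries and were not shown to pair them: the deviations of same-numbered libraries correlated by 0.189, -0.344, -0.129, -0.171 and -0.228, and only those of number 1 correlated best with their own number. With the replicate block, limma called 0 genes in all, 0 of the 10 and 0 other pathway genes, and the exact test, which cannot go under 0.0625 there, 0 of the 10. Depth limits Nkd1 most, with 12 to 65 reads per library.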
